A study of Sus scrofa with 2 samples.

Results

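Antioxidant enzymes and selenoproteins were followed through 10 genes, SELENOP, GSTA1, MGST1, GPX1, GPX3, GPX4, SOD1, SOD2, CAT and PRDX1, of 22342 genes counted in the somatic cells of pig antral follicles. They were chosen by gene symbol, with UMI counts of the same libraries already seen, so their levels and ratios are a description and carry no test. The symbol found 9 of 10 genes, and PRDX1, which the gene list gives by its Ensembl identifier, was added through a reference table of the same assembly. Both follicles came from the same Landrace × Yorkshire gilt of 210 days, which had been given PMSG, a gonadotropin, at 5 IU and 48 h earlier, and both were healthy and over 7 mm wide. Follicle 1 is AF75 and follicle 2 is AF76, each with 1 library of 3′ UMI counts, and the oocyte had been taken out. With 1 library per follicle no test between follicles was made. A difference between AF75 and AF76 cannot be told apart from a difference between libraries, and the cells of a library are not replicates.

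Selenoproteins carry selenocysteine, which is inserted at a UGA codon that would otherwise end the protein. SELENOP carries selenium between cells, and the glutathione peroxidases use selenium and glutathione to reduce peroxides. Superoxide dismutases turn superoxide into hydrogen peroxide, which catalase and peroxiredoxins remove, and glutathione transferases join glutathione to reactive compounds. Granulosa cells of large follicles make steroids, and electrons that leak from steroid synthesis in mitochondria are a known source of superoxide.

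Barcodes with 2000 to 5000 genes and under 7% mitochondrial UMIs were kept as cells, 9362 of 14289 in AF75 and 7843 of 15548 in AF76. The median depth was 11254.5 UMIs per cell in AF75 and 13902 in AF76. The libraries shared 56 barcodes, 18 of them among the cells kept. Doublets were scored but stayed in, and values without them were computed beside the others. Of the granulosa cell markers, 9 of 10 had a UMI in AF75, where AMH had none, and 10 of 10 in AF76, with summed levels of 31539 and 32885.5 CPM (UMIs scaled to the total of the cells). INHA was the most abundant of them in both. Levels below are CPM of UMIs summed over cells, with 95% intervals that cover counting error only.

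The cells fell into 6 clusters, numbered by size, when the listed redox genes were left out of the variable genes. Cluster 0 held 6359 cells of AF75 and 5728 of AF76 and was led by TGFB3, ENPP2, IL33, LIMCH1 and ANKRD22. Cluster 1, with 2296 and 917 cells, was led by ARPP21, ALPK2, SHAS2, a gene without a symbol and APOD. Cluster 2 was led by DEFB1, CCL26, CEMIP, CCDC80 and CRABP2 and held 678 cells of AF76 and 0 of 9362 cells of AF75, where 3 counts would make a share of 0.032%. As all of its cells came from 1 library, cluster 2 may be that library and not a cell type, and it is not named here. Its median depth was 6422 UMIs. Cluster 3, with 455 and 121 cells, was led by the cell cycle genes TOP2A, CDCA8, DIAPH3, NDC80 and PCLAF. Cluster 4, with 181 and 192 cells, was led by SPP1, CTSS, ALDH1A2, SLC24A1 and C12orf75, and cluster 5, with 71 and 207 cells, by TECR, RFESD, NCCRP1, MPDU1 and EGFL7 at folds of no more than 1.88. Cells of cluster 5 had median mitochondrial shares of 0.411% in AF75 and 0.73% in AF76, the lowest of the clusters in each follicle. Their median gene numbers were 2616 and 2541. The part of these in the levels of cluster 5 was not tested.

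Over all cells kept, 1 of the 10 genes, SELENOP, was past 1.5-fold higher in AF76 and 0 were past 1.5-fold lower, beside 1.8% and 3.85% of all 10049 genes that reached 200 UMIs in either follicle. MGST1, at a ratio of 1.46 (interval 1.42 to 1.49), lay just under that fold. The median log2 ratio of the 10 genes was 0.20, and that of all genes was -0.00187. The other genes lay between a ratio of 0.839 for GPX3 and 1.35 for SOD2.

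**Figure D1:**
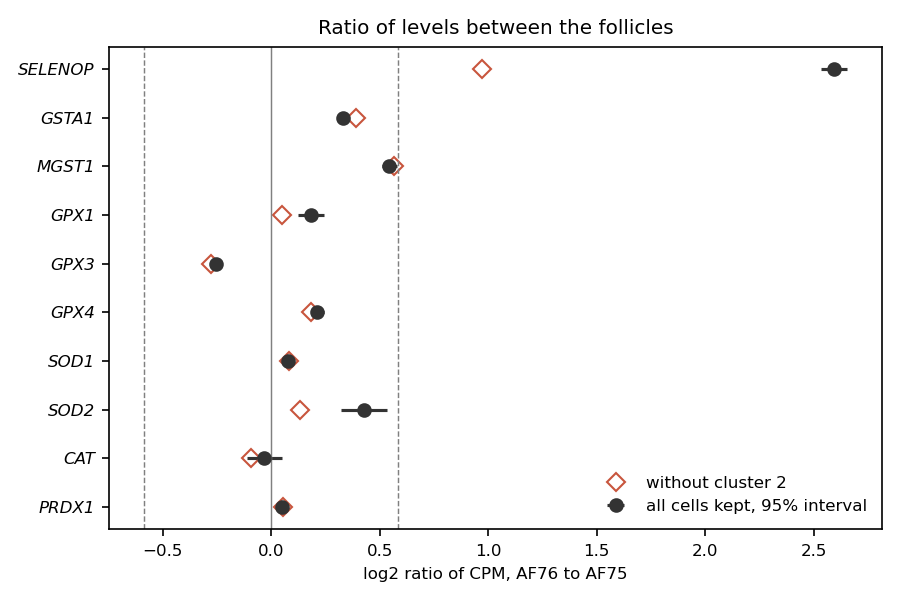
Log2 ratio of CPM in AF76 to AF75 for each gene over all cells kept (points, with 95% counting intervals) and without the cells of cluster 2 (open diamonds); dashed lines mark 1.5-fold. SELENOP lies at 2.59 with all cells and at 0.97 without cluster 2.

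SELENOP, the selenium carrier, stood at 24.2 CPM (interval 23.3 to 25.2) in AF75 and 146 CPM (interval 144 to 149) in AF76, a ratio of 6.03 (interval 5.79 to 6.29). Most of its UMIs in AF76, 68.9%, lay in the 678 cells of cluster 2, at 2289 CPM (interval 2246 to 2332), beside 47.5 CPM in the other cells of that follicle. A UMI of SELENOP was found in 99.1% of the cells of cluster 2. Among those with at least 5000 UMIs, each thinned to that depth, it was found in 98.3%. SELENOP was thus highest in cluster 2 among the clusters of AF76, though not confined to it, and AF75 held no cells of cluster 2. Without cluster 2, a comparison chosen after the values were seen, its log2 ratio between the follicles went from 2.59 to 0.97. With the mean of per-cell CPM, which gives shallow cells the weight of deep ones, it was 3.38, and SOD2 was past 1.5-fold as well.

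Outside cluster 2, SELENOP differed most between the follicles in clusters 1 and 3. In cluster 1 it stood at 10.5 CPM (interval 9.27 to 11.8) in AF75 and 85.7 CPM (interval 80.9 to 90.8) in AF76, a ratio of 8.18 (interval 7.15 to 9.37). In the cycling cells of cluster 3 it stood at 34.7 and 170.1 CPM, a ratio of 4.9 (interval 4.17 to 5.77). In cluster 0 the ratio was 1.38 (interval 1.3 to 1.46), under 1.5-fold, and past it in 1 finer cluster, at a log2 ratio of 0.81. In cluster 4 it was 1.59 (interval 1.24 to 2.04), on fewer than 200 UMIs in each follicle. The ratios in clusters 0 and 1 were lower when doublets, or cells with RNA of the leading genes of cluster 2, were left out. With doublets removed, the log2 ratio in cluster 1 went from 3.03 to 2.24. With doublets kept, it was, within a finer cluster of 1310 and 891 cells mostly from cluster 1, 2.41. Without cells that hold a UMI of the 5 leading genes of cluster 2, a filter chosen after the values were seen that also depends on depth, it was 1.96, and in cluster 3 it went from 2.29 to 0.30.

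The leading genes of cluster 2 also had UMIs in the other clusters of AF76. CCDC80 stood at 948 CPM in cluster 2, and in AF76 at 5.36 CPM in cluster 0, 27.1 CPM in cluster 1 and 58.8 CPM in cluster 3, beside 0.662, 0.704 and 0.544 CPM in AF75. As a share of its level in cluster 2, the excess of SELENOP in AF76 over AF75 was 0.45% in cluster 0, 3.29% in cluster 1 and 5.91% in cluster 3. The same share over the first 10 leading genes had a median of 0.547% in cluster 0 (from 0.484% to 1.3%), 1.57% in cluster 1 (from 0.218% to 4.29%) and 2.47% in cluster 3 (from 0% to 6.15%). SELENOP lay within the range of these genes in clusters 1 and 3 and under it in cluster 0. The part of free RNA in the ratios of SELENOP was not tested.

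**Figure D2:**
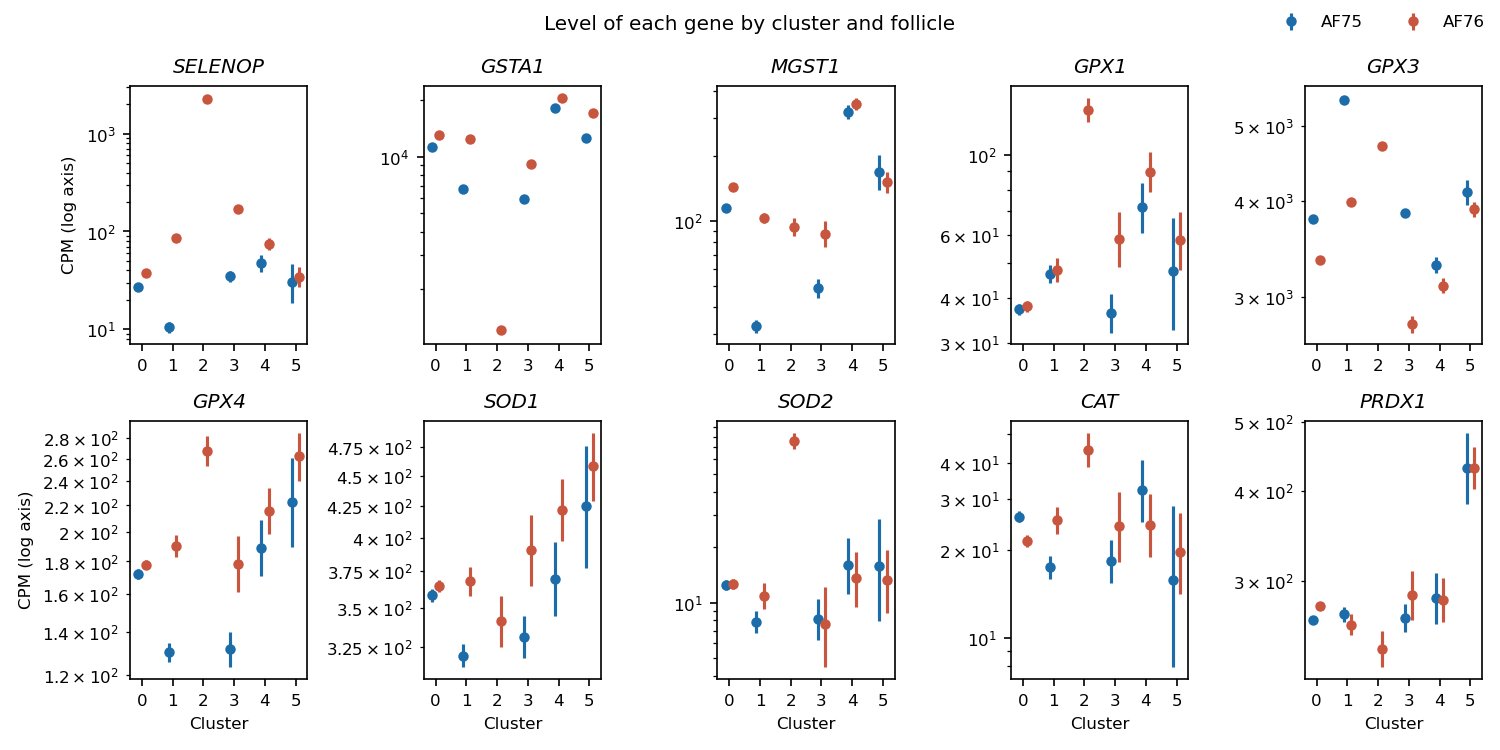
CPM of each gene (log axis, with 95% counting intervals) by cluster, in AF75 (blue) and AF76 (red); cluster 2 has cells of AF76 alone. SELENOP reaches 2289 CPM and GSTA1 drops to 1203 CPM in cluster 2, while SOD1 and PRDX1 stay near their levels elsewhere.

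Among the glutathione peroxidases, GPX3, the secreted form, stood at 4157 CPM (interval 4145 to 4169) in AF75 and 3487 CPM (interval 3476 to 3498) in AF76. Its ratio was 0.839 (interval 0.835 to 0.842), lower in AF76, and it was under 1 in each of clusters 0, 1, 3 and 4, from 0.717 in cluster 3 to 0.941 in cluster 4. Of those clusters, cluster 1 had the highest level in both follicles, 5406 and 3982 CPM. Cluster 2 stood at 4706 CPM, above cluster 1 of the same follicle. GPX3 was found in nearly all cells, and its levels varied among clusters by less than 2-fold in each follicle.

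GPX4, which reduces lipid peroxides in membranes, stood at 160.4 CPM (interval 158 to 163) in AF75 and 186 CPM (interval 183 to 189) in AF76, a ratio of 1.16 (interval 1.14 to 1.18). It differed between the follicles most in cluster 1, from 130.1 to 190.3 CPM, a ratio of 1.46 (interval 1.39 to 1.54). The ratio in cluster 3, 1.36 (interval 1.21 to 1.53), does not differ from that beyond their intervals. In AF76 the level was 268 CPM (interval 253 to 283) in cluster 2 and 262 CPM (interval 241 to 286) in cluster 5, which do not differ beyond their intervals. GPX1, the cytosolic form, stood at 40.03 CPM (interval 38.9 to 41.2) and 45.4 CPM (interval 44.2 to 46.7), a ratio of 1.13 (interval 1.09 to 1.18). In cluster 2 it was at 133 CPM (interval 123 to 144), beside 41.4 CPM in the other cells of AF76, a ratio of 3.22 (interval 2.96 to 3.5). Cluster 4 had 71.4 CPM, the highest of AF75, and 89.6 CPM in AF76, next to cluster 2. So GPX1 was higher in clusters 2 and 4 than in the large cluster 0, where it was at 37.2 and 37.9 CPM. Immune markers summed to 29.8 CPM in cluster 4 of AF75, led by CD14, and 149.5 CPM in AF76, led by FCER1G, and their part in the level of GPX1 was not tested.

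GSTA1, a glutathione transferase also known for steroid isomerase activity, stood at 10032 CPM (interval 10014 to 10051) in AF75 and 12619.7 CPM (interval 12599 to 12641) in AF76, a ratio of 1.26 (interval 1.25 to 1.26). In cluster 2 it was at 1203 CPM (interval 1172 to 1234), beside 13146 CPM in the other cells of AF76, a ratio of 0.0915 (interval 0.0892 to 0.0939). INHA moved with it, at 2289 CPM in cluster 2 and 24138 CPM in the other cells. The steroid enzyme gene CYP11A1 did not, at 1968 and 1666 CPM. GSTA1 was highest in cluster 4 in both follicles, at 18063 CPM in AF75 against 20309 in AF76. The comparisons with cluster 2 and cluster 4, here and elsewhere, were chosen after the values were seen. GSTA2, a close relative, is not in the gene list, and whether its reads were counted as GSTA1 was not tested.

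MGST1, a membrane-bound glutathione transferase and peroxidase, stood at 96.5 CPM (interval 94.6 to 98.3) in AF75 and 141 CPM (interval 138 to 143) in AF76. It too was highest in cluster 4, at 321 CPM (interval 297 to 346) in AF75 and 349 CPM (interval 327 to 372) in AF76, which do not differ beyond their intervals. Against the other cells of each follicle that was a ratio of 3.48 (interval 3.22 to 3.77) in AF75 and 2.58 (interval 2.41 to 2.76) in AF76. In AF75 the order was clusters 4, 5, 0, 3 and 1, with 32.8 CPM in cluster 1. Both transferases were thus highest in cluster 4 and, in AF75, low in clusters 1 and 3.

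In cluster 1 both transferases stood higher in AF76. GSTA1 went from 6711 to 12393 CPM, a ratio of 1.85 (interval 1.83 to 1.86), and MGST1 from 32.8 to 103 CPM, a ratio of 3.15 (interval 2.89 to 3.44). With SELENOP, 3 of 10 genes were past 1.5-fold higher in cluster 1 and 0 lower, beside 6.72% and 7.89% of all genes. Without integration cluster 1 held fewer than 100 cells of AF76, and these comparisons could not be made. Cluster 1 did not hold the same mix of cells in both follicles. At a finer resolution 998 cells of AF75 and 36 of AF76, mostly from cluster 1, formed a cluster of their own, and within the finer cluster that held 1310 and 891 cells the log2 ratio of GSTA1 was 0.45, under 1.5-fold, and that of MGST1 1.12. VCAN, a marker of cumulus cells, went from 5847 to 1059.5 CPM in cluster 1, AREG, a marker of mural cells, from 1009.8 to 4623 CPM, and HBB of red blood cells from 1.72 to 161 CPM. The part of these cells in the ratios was not tested.

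In cluster 3, 4 of the 10 genes were past 1.5-fold higher in AF76, SELENOP, GSTA1, MGST1 and GPX1, and 0 lower, beside 2.39% and 6.13% of all genes. SOD2 and CAT had fewer than 200 UMIs there and were not counted. VCAN went from 3115 to 436 CPM and AREG from 1477 to 3595 CPM in cluster 3, and doublets made up 17.6% of its cells in AF75 and 0.826% in AF76. With doublets removed 4 genes were past 1.5-fold higher, and the part of the markers was not tested. Without cells that hold a UMI of the leading genes of cluster 2, 2 were, GSTA1 and MGST1. In clusters 0 and 4 no gene of the 10 was past 1.5-fold either way among those counted, beside 0.36% higher and 1.39% lower of all genes in cluster 0 and 0.892% and 0.798% in cluster 4.

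SOD1, the cytosolic copper and zinc superoxide dismutase, stood at 348 CPM (interval 345 to 352) in AF75 and 368 CPM (interval 364 to 371) in AF76, a ratio of 1.06 (interval 1.04 to 1.07). Among clusters of AF75 it ran from 319 CPM in cluster 1 to 424 CPM in cluster 5, and among those of AF76 from 341 CPM in cluster 2 to 458 CPM in cluster 5. SOD2, the mitochondrial form, stood at 11.2 CPM (interval 10.6 to 11.9) and 15.1 CPM (interval 14.4 to 15.8), a ratio of 1.35 (interval 1.25 to 1.45). In cluster 2 it was at 75.9 CPM (interval 68.3 to 84.1), beside 12.3 CPM in the other cells of AF76, a ratio of 6.17 (interval 5.48 to 6.94). Without cluster 2 its log2 ratio between the follicles went from 0.43 to 0.13. By summed level the dismutases thus parted in cluster 2, where SOD2 was high and SOD1 close to its level in the other cells. A UMI of SOD2 was found in 25.7% of the cells of cluster 2.

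CAT, which breaks down hydrogen peroxide in peroxisomes, stood at 23.6 CPM (interval 22.7 to 24.6) in AF75 and 23.1 CPM (interval 22.2 to 24) in AF76, with a ratio whose interval holds 1 (0.926 to 1.03). Cluster 2 had 44.4 CPM (interval 38.6 to 50.8), a ratio to the other cells of AF76 of 2 (interval 1.73 to 2.31). Over all genes counted in that comparison the median log2 ratio was 0.35. PRDX1, a thiol peroxidase, stood at 267 CPM (interval 264 to 270.1) and 276 CPM (interval 273 to 279), a ratio of 1.03 (interval 1.02 to 1.05). It was highest in cluster 5, at 432 CPM in AF75 against 431 in AF76, and between 241 and 286 CPM in all other clusters of both follicles.

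Against the other cells of AF76, cluster 2 was past 1.5-fold higher for SELENOP, GPX1, SOD2 and CAT and past 1.5-fold lower for GSTA1 and MGST1, beside 38.3% higher and 14.9% lower of all genes. Cluster 4 was past 1.5-fold higher for SELENOP, GSTA1, MGST1 and GPX1 in AF75 and for GSTA1, MGST1 and GPX1 in AF76, where SELENOP was past it lower, with cluster 2 among the other cells. The background was 7.35% higher and 9.52% lower in AF75 and 5.75% and 9.29% in AF76. Among clusters 0, 1, 3 and 4, which held at least 100 cells of each follicle, 7 of the 10 genes were highest in the same cluster in both follicles, a count set up after the values were seen. Over all genes that reached 200 UMIs in either follicle that was so for 50.9%. For GPX4, SOD1 and SOD2, counted among the 7, the interval of the highest cluster overlapped that of another in at least 1 follicle.

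The genes were set in 10 lists of redox and selenium genes and 142 of 157 genes were found, with 115 at 200 UMIs or more in one follicle. Of these 5 were past 1.5-fold higher in AF76 and 7 lower, beside 1.8% and 3.85% of all genes, with a median log2 ratio of 0.0666, against -0.00187 over all genes. Of 15 selenoprotein genes 1 was higher, SELENOP, and 0 lower. Among 10 genes of selenocysteine synthesis and selenium supply 1, SEPSECS, was lower, and among 16 genes of superoxide and peroxide removal 1, SOD3. Of 10 glutathione transferases none was past 1.5-fold, with a median of 0.15.

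The listed genes past 1.5-fold higher in AF76 all stood higher in cluster 2 than in the other cells of AF76, NOX4 on few UMIs. Of all genes counted in that comparison, 38.3% were past 1.5-fold higher. As cluster 2 had cells of AF76 alone, a high level in it raises the ratio between the follicles, so these are not separate results. SLC40A1, the iron exporter ferroportin, stood at 0.566 CPM in AF75 against 6.57 in AF76, and at 109 CPM in cluster 2. TXNIP, which binds thioredoxin, stood at 41.7 CPM in AF75 against 131 in AF76, and at 1593 CPM in cluster 2. HMOX1, which breaks down heme, stood at 6.72 CPM in AF75 against 18.4 in AF76, and at 275 CPM in cluster 2. NOX4, which makes hydrogen peroxide, stood at 1.58 CPM in AF75 against 2.44 in AF76. It was at 25.6 CPM in cluster 2 and 1.37 CPM in the other cells of AF76. With 123 UMIs in cluster 2, NOX4 was not counted in that comparison. Without cluster 2 the log2 ratios of HMOX1 and NOX4 were -0.034 and -0.204, and those of SLC40A1 and TXNIP 1.71 and 0.60. Red blood cell markers moved with the follicle as well, as 4 of 5 had a UMI in AF75, with ALAS2 at 0, and 5 in AF76, with a summed 2.55 and 46 CPM, mostly HBB. In cluster 2 they summed to 15 CPM. Their part in these ratios was not tested.

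The largest ratios the other way were those of PTGS2, MT1A, SOD3, SEPSECS and CHAC1. PTGS2, a prostaglandin synthase, stood at 8.56 CPM in AF75 against 0.202 in AF76. MT1A, a metallothionein, stood at 5609.9 CPM in AF75 against 2585 in AF76, and SOD3, the secreted superoxide dismutase, at 149.6 CPM in AF75 against 69.5 in AF76. SEPSECS, which makes selenocysteine on its tRNA, stood at 11.9 CPM in AF75 against 6.78 in AF76, and CHAC1, which degrades glutathione, at 4.45 CPM in AF75 against 2.81 in AF76. These 5 kept a negative log2 ratio without cluster 2, from -5.63 for PTGS2 to -0.63 for CHAC1. In AF75 all of them stood higher in cluster 1 than in cluster 0, as PTGS2 at 29 and 1.34 CPM and SOD3 at 289 and 93.7 CPM. In the same clusters of AF76, PTGS2 was at 0.22 and 0.12 CPM and SOD3 at 85.5 and 53.7 CPM, so both were also lower within each. MT1A and SEPSECS were lower within each as well. CHAC1 was lower in cluster 1, at 9.08 CPM in AF75 against 1.61 in AF76. In cluster 0 it was not, at 2.85 CPM in AF75 against 3.05 in AF76. Cluster 1 made up 24.5% of the cells of AF75 and 11.7% of those of AF76. Over all cells kept, 4 of 4 markers of cumulus cells, led by VCAN, summed to 3065 CPM in AF75 against 662 in AF76. The part of these cells in the ratios was not tested.

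Beside the glutathione peroxidases and SELENOP, the selenoprotein genes at 50 CPM or more were SELENOF, SELENOH, SELENOS, SELENOT and TXNRD1. Between the follicles their ratios ran from 0.983 for SELENOT to 1.12 for SELENOS. In cluster 2 they parted. SELENOS, of endoplasmic reticulum protein quality control, was at 191 CPM there and 740.4 CPM in the other cells of AF76, and SELENOT at 168 and 357 CPM. TXNRD1, the cytosolic thioredoxin reductase, was at 137 and 83.7 CPM. SELENOF was at 299 and 445 CPM, and SELENOH at 86.3 and 79.5 CPM, which is close to its level in the other cells. Over all 112 listed genes counted in this comparison, 38 were past 1.5-fold higher in cluster 2 and 28 lower, beside 38.3% and 14.9% of all genes, with a median log2 ratio of 0.25, against 0.35 over all genes.

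Pearson correlations of log-scaled UMIs per 10000 were computed over 9362 cells of AF75 and 7843 of AF76, which share a library and differ in depth. Of 45 pairs 0 had r of at least 0.1 in both follicles, beside 0.834% of all pairs among 2851 genes at 50 CPM or more, a level that SELENOP, GPX1, SOD2 and CAT did not reach in both follicles. The 1 pair past it in AF75 was GSTA1 with MGST1, at r = 0.128 and 0.0533 in AF76, beside 1.6% of all pairs in AF75. Within cluster 0 its values were 0.00694 and 0.00549. The highest value common to both follicles was that of SOD1 with PRDX1, at 0.0881 and 0.0936. MGST1 and GPX3 had the 1 pair at or under -0.1 in both, beside 0.247% of all pairs, at -0.2 and -0.139, and stayed so within cluster 0, at -0.115 and -0.123.

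In AF76, 4 pairs had r of at least 0.1, all of them with SELENOP, namely GPX1 at 0.205, SOD2 at 0.187, GPX3 at 0.136 and CAT at 0.102, beside 3.01% of all pairs at 50 CPM or more. At -0.1 or less were 5 pairs, beside 1.85% of all pairs, namely MGST1 with GPX3, SELENOP with GSTA1 and with PRDX1 (-0.109), and GSTA1 with GPX1 (-0.109) and with SOD2 (-0.108). SELENOP with GSTA1 had r = -0.434 there and 0.0724 in AF75. Without cluster 2 that value was -0.019, and 0 pairs reached 0.1. The share of all pairs that did so without cluster 2 was not computed. MGST1 with GPX3 kept -0.124. The correlations of SELENOP in AF76 thus shrank without cluster 2, and those within cluster 2 were not computed. Weak values of sparse genes such as SOD2 and CAT say little.

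**Figure D3:**
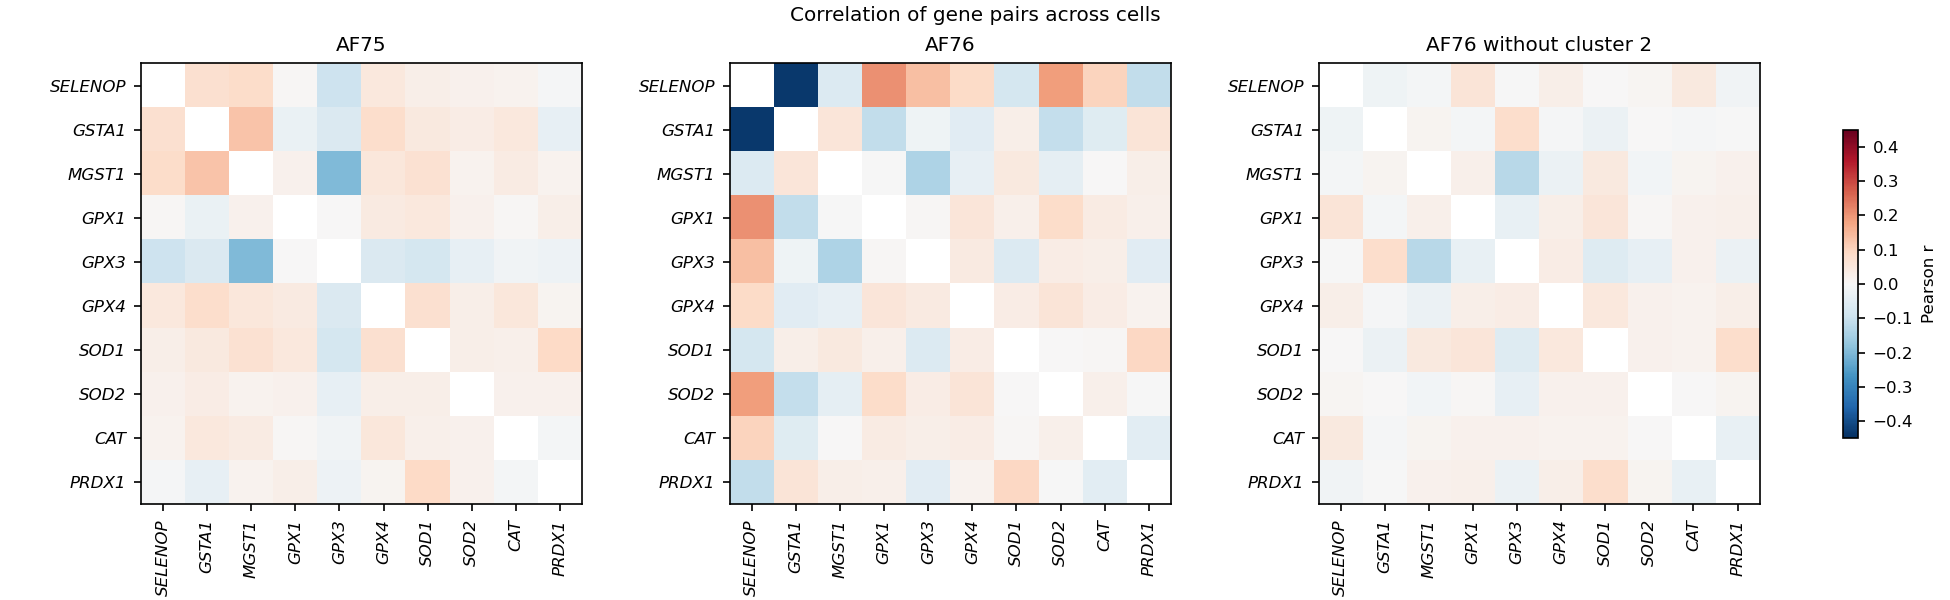
Pearson r of each gene pair across cells kept in AF75, in AF76 and in AF76 without cluster 2, on a color scale from negative (blue) to positive (red). The row of SELENOP stands out in AF76, from -0.434 with GSTA1 to 0.205 with GPX1, and fades without cluster 2.

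Of 2851 genes at 50 CPM or more in both follicles, INHA had the pattern across cells most like GSTA1 (r = 0.347 in AF75 and 0.487 in AF76), followed by ANXA2 and HADH. For GPX3 it was TNIP1 (0.259 and 0.255), the gene nearest to GPX3 in the genome, on the other strand, followed by PRCP. EMC3, GLDN and IGFBP7 came first for MGST1 (0.221 and 0.142 for EMC3). For SELENOP the first were IQGAP2 (0.12 and 0.18), TLCD4 (0.119 and 0.483) and NCOA4 (0.112 and 0.456). PRDX1 was most like UBB (0.142 and 0.197), GAPDH and TXN, and SOD1 most like TXN (0.121 and 0.131), PSMA4 and MYL12A. S100A11 and S100A6 came first for GPX1, SH3BGRL3, TUBA1B and VIM for GPX4, VIM for CAT and LAP3, second to a gene without a symbol, for SOD2, with weaker values.

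The genes also differed in how unevenly they were spread over cells. On counts thinned to 5000 UMIs per cell, the variance beyond counting noise, as a squared coefficient of variation, had a median of 0.137 in AF75 and 0.155 in AF76 over 2851 genes. MGST1 stood at 3.93 and 5.18, and GSTA1 at 0.83 and 0.837. SOD1 stood at 0.0496 and 0.111, and PRDX1 at 0.0671 and 0.13. SELENOP stood at 4.11 and 11, SOD2 at 0.846 and 9.23, and GPX1 at 1.24 and 2.79. SELENOP and SOD2 were thus the most uneven of the 10 genes in AF76, and SELENOP and MGST1 in AF75. Clusters took up 66.1% of the variance of SELENOP in AF76 and 1.11% without cluster 2, and 22.5% and 0.724% of that of GSTA1.

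SELENOP was found in 18.8% of the cells of AF75 and 38% of AF76, and in 9.34% and 21.8% at 5000 UMIs, which left out 19 and 105 cells. SOD2 was found in 12.1% and 16.6%, and at 5000 UMIs in 5.21% and 6.93%. MGST1 was found in 48.4% and 61.7%, and at 5000 UMIs in 29% and 36.6%. GSTA1 and GPX3 had a UMI in over 99% of cells of both follicles. Free RNA gives such UMIs in cells that do not express a gene. Among 48 red-cell-like barcodes of AF76, with a median of 3602 UMIs against 13902 in the cells kept, 91.7% had a UMI of GSTA1, 6.25% of MGST1 and 18.8% of SELENOP. Of the 12 in AF75, with a median of 1811.5 UMIs, 0 had a UMI of SELENOP, with an upper limit of 26.5%. In AF76 the level of GSTA1 in those barcodes was 2629 CPM, 20.8% of that of the cells kept. SELENOP in the same barcodes was at 101 CPM (interval 60.9 to 158), 69.1% of that of the cells kept. HBB made up 559192 CPM of these barcodes, which are shallower than the cells, so the levels do not give the amount of free RNA per cell, and its part in the levels of SELENOP and GSTA1 was not tested.

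Leukocyte-like barcodes, with at least 10 UMIs over at least 3 immune markers, numbered 4 in AF75 and 29 in AF76, 1 and 10 of them among the cells kept. In AF76 they had 119 UMIs of SELENOP, 669.5 CPM (interval 555 to 801), and GPX1 at 518 CPM. Their median depth was 3892 UMIs, and 37.9% had a UMI of SELENOP, 44.8% of MGST1 and 27.6% of SOD2. In AF75 the few of them had SELENOP at 1176 CPM (interval 1002 to 1373) and GPX1 at 1008 CPM. In red-cell-like barcodes GPX1 stood at 426 CPM (interval 220.3 to 745) in AF75 and 245 CPM (interval 179 to 327) in AF76. GPX1 was thus higher in both sets of blood-like barcodes than in the cells kept. Of the 11 immune markers 7 had a UMI in cluster 2, with a summed 11.7 CPM, led by CD14 at 8.75 CPM, and PTPRC, CD3E, CD2 and LCP1 at 0. Over all cells kept they summed to 13 CPM in AF75 against 14.8 in AF76. Of 9 markers of theca or stroma all had a UMI in cluster 2, with a summed 343 CPM led by TAGLN at 203 CPM, beside 523 CPM in all cells of AF76, of which INSL3 made 496, and 316 CPM in AF75. The granulosa cell markers summed to 8263 CPM in cluster 2 and 32885.5 CPM in all cells of AF76, both led by INHA. Among them FSHR stood at 37.9 CPM in cluster 2 and 0.509 CPM in the other cells of AF76, and AMH had UMIs in cluster 2 alone. The muscle genes MYH11 and ACTA2 were 133 and 117 times higher in cluster 2 than in all other cells of both follicles. The part of such cells in the levels of cluster 2 was not tested.

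Barcodes outside the limits were set against the cells kept. Those under 2000 genes numbered 4595 in AF75 and 7397 in AF76, with median depths of 1303 and 1180 UMIs. In AF76 3 of the 10 genes were past 1.5-fold higher there, SELENOP at 516 CPM, SOD2 at 27.7 CPM and GPX1 at 76.1 CPM, and 0 lower, beside 5.85% and 9.39% of all genes. In AF75 0 were higher and 1 lower, MGST1 at 61.9 CPM, beside 4.08% and 5.24%. The genes higher in AF76 were among those of cluster 2, and CCDC80 was at 167 CPM in the same barcodes and at 0.899 CPM in those of AF75. HBB stood at 2266 and 8887 CPM there.

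Barcodes over 5000 genes, 139 in AF75 and 166 in AF76, had median depths of 30851 and 30612.5 UMIs. In AF75 2 genes were past 1.5-fold higher there, SELENOP at 65.5 CPM and GPX1 at 68.2 CPM, and 0 lower, beside 4.71% and 1.87% of all genes. In AF76 1 was higher, SELENOP at 226 CPM, and 0 lower, beside 5.11% and 1.16%. Barcodes with 2000 to 5000 genes but 7% or more mitochondrial UMIs numbered 193 and 142. In AF75 0 genes were higher and 0 lower, beside 6.79% and 7.98%. In AF76 0 were higher and 1 lower, GSTA1 at 8177 CPM, beside 9.32% and 6.65%.

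In the RefSeq annotation of Sscrofa11.1, SELENOP lies at chr16:27537885-27547863 on the minus strand and overlaps CCDC152 of the other strand, of which no UMI was counted in the cells kept. GPX3 lies at chr16:71980467-71989011, GPX4 at chr2:77321568-77323931 and GPX1 at chr13:31916269-31917337, all on the minus strand, and GSTA1 at chr7:46538743-46550781, MGST1 at chr5:56259566-56283823 and CAT at chr2:26493664-26533881 on the same strand. SOD1 at chr13:195326573-195335273, SOD2 at chr1:7679352-7689564 and PRDX1 at chr6:165847390-165859918 lie on the plus strand, and SOD1 overlaps SCAF4 of the other strand.

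What the selenoprotein genes share, and the rule did not use, is an in-frame TGA codon that is read as selenocysteine. GPX1, GPX3 and GPX4 each have 1, at residue 52 of 206, 73 of 226 and 73 of 197. SELENOP has 14, the first at residue 59 and the rest from residue 267 to 387 of 390. The coding sequence around the codon is shown for each peroxidase and for the first codons of SELENOP, from the Sscrofa11.1 genome and in the direction of the minus strand, which all of these genes use. Capitals mark the TGA codon. The windows lie at chr13:31917165-31917197 for GPX1, chr16:71984083-71984115 for GPX3, chr2:77322618-77322650 for GPX4, and chr16:27544709-27544741 and chr16:27539100-27539132 for SELENOP.
GPX1: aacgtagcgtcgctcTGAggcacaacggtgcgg
GPX3: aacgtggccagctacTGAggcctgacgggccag
GPX4: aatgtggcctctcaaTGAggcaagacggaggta
SELENOP first codon: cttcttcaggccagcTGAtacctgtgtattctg
SELENOP next codon: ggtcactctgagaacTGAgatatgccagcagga

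The motif TGACNNNGC, part of the antioxidant response element, was searched on both strands from 250 bases before to 50 after each gene start. It was in 2 of 10 windows, those of GPX4 and SELENOP, and in 12.2% of 20651 windows of the same length over all genes. A match is a description of the letters and not a bound site.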

How the data were processed

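From each follicle, somatic cells were taken for 1 library of 3′ ends by 10x Genomics. The deposited values are whole counts of UMIs per gene and barcode, which the authors made with CellRanger 6.0.2 on Sscrofa11.1, with no later filter or normalization. AF75 held 125409747 UMIs and AF76 127414267. The submitters' names of the deposited data, not the labels, link the numbered follicles to AF75 and AF76. Of 7356 genes listed without a symbol, 1042 were named from a reference table.

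The members and the gene lists were chosen with earlier results of these data known. Barcodes were limited by genes and mitochondrial UMIs, and doublets were scored but stayed in. Clusters were made with Seurat 5.3.0 in R 4.3.3 on 2000 variable genes, anchor integration and 40 components, at the lowest resolution that gave 6 clusters (0.24). Other steps used Python 3.11.15, numpy 2.4.6, scipy 1.17.1, pandas 2.3.3 and scikit-learn 1.9.0. Intervals at 95% are exact, from the Poisson distribution for levels, the binomial for shares of cells and the conditional binomial for ratios, and a count of 0 is limited by 3 counts. Code for ratios, intervals and correlations was tested on simulated data. Genes named from the lists are the 5 largest ratios each way with at least 200 UMIs in one follicle and the selenoproteins at 50 CPM or more. Likeness names 3 genes for each gene studied and each cluster is given by its first 5 genes. The alternatives were doublets removed, other limits on cells, other scalings, thresholds and correlations, and other clusterings. Left out were the doublet score of barcodes outside the limits and listed genes that the gene list does not name.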

Additional observations from a re-analysis of the deposited data

Results flagged for a closer look

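In 5 cases the level of a gene in a cluster, set against cluster 0 of the same follicle, lay on opposite sides of 1 in AF75 and AF76, with 1 outside both counting intervals. The share of all genes with such ratios was not computed, so the number of cases is not read as particular to these genes. For SELENOP in cluster 1 the ratio was 0.386 (interval 0.338 to 0.438) in AF75 and 2.29 (interval 2.14 to 2.45) in AF76, a difference of 2.57 in log2 ratio, AF76 minus AF75. For GPX3 in cluster 3 the ratio was 1.02 (interval 1.01 to 1.03) in AF75 and 0.825 (interval 0.804 to 0.846) in AF76, a difference of -0.31 in log2 ratio, AF76 minus AF75. For GPX4 in cluster 1 the ratio was 0.756 (interval 0.727 to 0.785) in AF75 and 1.07 (interval 1.03 to 1.12) in AF76, a difference of 0.50 in log2 ratio, AF76 minus AF75. For SOD1 in cluster 3 the ratio was 0.924 (interval 0.886 to 0.963) in AF75 and 1.07 (interval 1 to 1.15) in AF76, a difference of 0.21 in log2 ratio, AF76 minus AF75. For CAT in cluster 1 the ratio was 0.669 (interval 0.603 to 0.742) in AF75 and 1.18 (interval 1.05 to 1.32) in AF76, a difference of 0.82 in log2 ratio, AF76 minus AF75. For SOD1 in AF76 the interval began at 1 to the digits printed, and left it out by less than those. The differences were not tested, since each follicle has 1 library. Among them SELENOP in cluster 1 alone was past 1.5-fold on both sides. The shares of cells scored as doublets in cluster 1 were 8.01% in AF75 and 10.8% in AF76, and those in cluster 3 were 17.6% and 0.826%. With doublets removed the differences were 1.92 for SELENOP, -0.31 for GPX3, 0.51 for GPX4, 0.21 for SOD1 and 0.78 for CAT. The ratio of SELENOP in cluster 1 of AF76 was then 1.34 (interval 1.22 to 1.47), under 1.5-fold, and the interval of CAT in AF76, 0.995 to 1.28, held 1.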

How the results depend on the processing

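No paired analysis was possible because each follicle has 1 library and no test was made. Of the counts under the alternatives, 113 lay within 1.5 times of the values reported and 10 did not, and no ratio past 1.5-fold changed direction in the alternatives run. With the mean of per-cell CPM, 2 of the genes studied were past 1.5-fold higher in AF76 in place of 1, as SOD2 reached a log2 ratio of 0.60. Listed genes lower in AF76 numbered 3 at 2-fold in place of 7. Listed genes higher in AF76 numbered 11 with no minimum of UMIs, where more genes are counted, and 2 without cluster 2, in place of 5. In cluster 3, 2 genes studied in place of 4 were higher without cells that hold a UMI of the leading genes of cluster 2. In barcodes under 2000 genes of AF76, 1 in place of 0 was lower with the mean of per-cell CPM, and in those over 5000 genes 0 in place of 1 was higher. With a mitochondrial limit of 10%, 5 in place of 0 were lower in the barcodes past the limit in AF75, and in AF76 1 in place of 0 was higher and 2 in place of 1 were lower. Apart from the minimum of UMIs and the fold, the cause was not tested. The alternatives without cluster 2 and without cells that hold those UMIs were chosen after seeing the data. Of the log2 ratios of single genes 302 lay within the counting interval of the value reported and 88 outside it, and of the shares of cells with a UMI, thinned to 5000 UMIs, 2 lay within and 18 outside. Without integration cluster 1 held fewer than 100 cells of AF76, so neither its ratios nor the cluster of highest level could be given.

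Each follicle is 1 library of the same pig, so a difference between them cannot be told apart from one between libraries, and intervals cover counting error only. Low counts limit SOD2 and CAT in the small clusters. The clusters were rebuilt and need not match those of the study.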
